A study of Mus musculus with 6 samples.

Results

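The genes described here encode the chains of the fibrillar collagens type I (Col1a1, Col1a2), III (Col3a1) and V (Col5a1, Col5a2, Col5a3), of the microfibril collagen type VI (Col6a1, Col6a2, Col6a3) and of the fibril-associated collagen type XIV (Col14a1). They were taken by symbol from the deposited table of liver mRNA levels, and all 10 were found among its 24346 gene rows. The liver samples came from 6 C57BL/6 mice (C57BL/6J in the study's methods) of a diet-induced nonalcoholic steatohepatitis (NASH) model. Male mice, 8 weeks old at the start, were fed CDAHFD, a fat-rich diet that lacks choline and supplies amino acids in place of protein, for 6 weeks, received an adeno-associated virus of serotype 8 (AAV8) once, and were returned to normal chow for 2 weeks before the liver was taken. The 3 control mice received the lipid droplet-targeting sequence LDTS joined to an LC3-interacting region that was mutated to lose its binding (LDTS-LIR mut). The 3 lipophagy mice received LDTS-eLIR, in which the engineered region recruits the autophagosome to the lipid droplet. Both vectors used the thyroxine-binding globulin promoter, which is active in hepatocytes, and both groups therefore carried the same diet history and the same droplet-targeting part. A liver without diet or vector was not analysed here, so the levels below have no healthy reference.

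Collagen molecules are trimers wound from chains with glycine at regular steps. Type I and type III collagens build the thick fibrils of the fibrotic scar, type V collagen joins them and limits fibril diameter, type VI collagen forms beaded microfibrils around cells, and type XIV collagen binds to the surface of fibrils. In the liver these mRNAs are made mainly by mesenchymal cells, namely hepatic stellate cells, which turn into myofibroblasts upon injury, and portal fibroblasts, and not by the hepatocytes that expressed the vectors. The measurement was made on whole liver tissue, in which fewer cells of a type and less RNA per cell cannot be told apart.

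The genes lie apart in the genome except for a few neighbours. In the GENCODE annotation of GRCm38 (mm10), Col3a1 at chr1:45311538-45349706 on the plus strand and Col5a2 at chr1:45374321-45503282 on the minus strand stand end to end, and Col6a2 at chr10:76595762-76623630 and Col6a1 at chr10:76708792-76726168 follow each other on the minus strand. Col6a3 is at chr1:90765923-90843971 (minus), Col5a1 at chr2:27886425-28039514 (plus), Col1a2 at chr6:4504814-4541544 (plus), Col5a3 at chr9:20770050-20815067 (minus), Col1a1 at chr11:94936224-94953042 (plus) and Col14a1 at chr15:55307750-55520803 (plus). The 250 bases before the start site are shown for Col3a1, the most abundant member, for Col6a3, the longest type VI chain, and for the type V chains Col5a1 and Col5a3, the least and the most abundant of type V. The sequences are those of RefSeq on GRCm38, written along the gene's strand, and capitals mark the motifs named below on either strand.
Col3a1, chr1:45311288-45311537, plus strand: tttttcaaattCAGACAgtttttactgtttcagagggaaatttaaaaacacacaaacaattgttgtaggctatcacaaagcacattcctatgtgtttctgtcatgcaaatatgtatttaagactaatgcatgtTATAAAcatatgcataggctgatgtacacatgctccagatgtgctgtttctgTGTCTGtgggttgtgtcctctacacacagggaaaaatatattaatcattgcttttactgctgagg
Col5a1, chr2:27886175-27886424, plus strand: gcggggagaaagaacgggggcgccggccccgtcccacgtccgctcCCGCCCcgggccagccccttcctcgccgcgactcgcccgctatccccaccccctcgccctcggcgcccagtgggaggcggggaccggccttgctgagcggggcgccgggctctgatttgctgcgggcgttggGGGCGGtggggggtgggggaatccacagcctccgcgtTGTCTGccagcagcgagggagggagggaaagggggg
Col5a3, chr9:20815068-20815317, minus strand: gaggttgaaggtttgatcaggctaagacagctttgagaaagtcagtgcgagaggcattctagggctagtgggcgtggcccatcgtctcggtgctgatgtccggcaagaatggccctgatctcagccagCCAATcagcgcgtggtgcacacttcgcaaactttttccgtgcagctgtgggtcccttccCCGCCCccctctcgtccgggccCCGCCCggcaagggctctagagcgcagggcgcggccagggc
Col6a3, chr1:90843972-90844221, minus strand: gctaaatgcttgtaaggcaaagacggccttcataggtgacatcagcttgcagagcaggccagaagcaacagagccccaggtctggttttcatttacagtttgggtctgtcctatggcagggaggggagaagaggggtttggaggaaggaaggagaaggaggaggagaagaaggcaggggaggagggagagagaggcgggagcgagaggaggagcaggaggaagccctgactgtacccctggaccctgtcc

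RefSeq windows were found for 7 members (8 windows, since Col6a2 has a pair of start sites), while Col1a1, Col5a2 and Col14a1 were not analysed here for sequence. The hexamer CAGACA, which lies in the CAGA box bound by SMAD proteins of the TGF-β pathway, was present in 3 of the 8 windows, namely at 2 places in the Col3a1 window and at 1 place each in those of Col1a2 and Col5a1, against 17.1% of all 32851 promoter windows of the same length. A TATAAA box was found in the Col3a1 window, 117 bases before the start, and in 12.4% of all windows. The GC box GGGCGG occurred in 5 of the 8 windows, among them both Col6a2 windows, which share bases, against 32.7% of all. The CCAAT box occurred in 2 of 8 (Col1a2 and Col5a3), against 33.9% of all. The motifs were searched on both strands and could overlap. The Col3a1 window held 35.2% G and C, and the Col5a1 window 76.4%. The Col6a3 window held none of the 4 motifs, which says only that these letters are not in it. The Col1a2 window is not printed because an annotated exon overlaps it. Annotated exons also overlap the Col6a1 window and 1 of the Col6a2 windows, and the motif counts include all of these.

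Expression was deposited as FPKM, fragments scaled to transcript length and to the mapped fragments of the library, which is a level per length and can be compared between genes. The steps between low values gave an estimated depth of 22.6 to 33.7 M fragments per liver (M, a count of 1e6), so that a member rested on between 122 fragments (Col5a2 in lipophagy liver 1) and 4693 fragments (Col3a1 in control liver 3). The FPKM values of all genes summed to 622696 to 681138 in control livers and to 709993 to 782392 in lipophagy livers, and neither quantile normalization nor scaling to a common median turned the direction of any of the 10 members. Defining hepatocyte markers were present as the label liver implies, with a summed level of 57770 to 64710 FPKM in the control group and 69770 to 92110 FPKM in the lipophagy livers. Each gene was compared as log2(FPKM + 1) with limma over the 11493 genes whose mean reached 0.5 FPKM, a filter that all 10 members passed. A log2 change is the lipophagy mean minus the control mean and understates the change of genes near 1 FPKM. With 3 livers against 3, the two-sided exact permutation test of a single gene cannot give a p below 0.1.

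**Figure D1:**
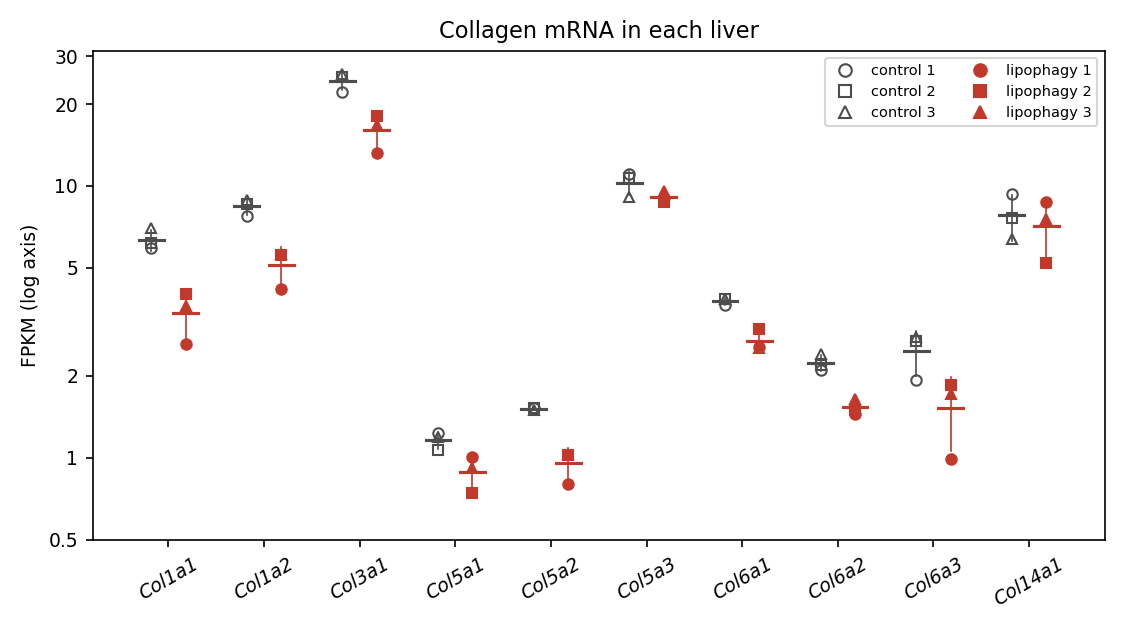
FPKM of each collagen gene (log axis) in the 3 control livers (open grey symbols) and the 3 lipophagy livers (filled red symbols), with the group mean as a bar and the SD as a line. In 8 of the 10 genes every lipophagy liver lay below every control liver, and in Col5a3 and Col14a1 the groups overlapped.

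All 10 genes had a lower mean in the lipophagy livers, and in 8 of them the lipophagy livers lay below each control liver, whereas 10.8% of all tested genes were separated in this direction. Without adjustment, the same 8 genes had a p below 0.05 (limma), against 7.97% of all tested genes in this direction. None of the 10 passed Benjamini-Hochberg adjustment over all tested genes at 0.05, where 0.0261% of tested genes were called lower, and the adjusted p of the 8 ranged from 0.103 for Col1a1 to 0.253 for Col5a1 (limma). Thus no single member is called, and the values below are given as measured differences. The median log2 change of the 10 genes was -0.37, against 0.020 over all tested genes. All 10 genes were chosen with earlier results of these data known, so these counts and shares describe them and are not a test. Col1a1 and Col1a2 are also marked in the study's heat map of these same livers. None of the 10 is independent evidence of the direction.

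Type I collagen, the major collagen of scar tissue, had the lowest log2(FPKM + 1) changes of the 10 genes, although Col3a1 differed more in FPKM and, with quantile normalization, also lay below Col1a2 on the log2 scale (-0.67 against -0.64). Col1a1, its α1 chain, was at 5.91, 6.15 and 6.98 FPKM in control livers 1, 2 and 3 and at 2.63, 3.99 and 3.61 FPKM in lipophagy livers 1, 2 and 3. Both groups stood clear of each other, and the highest lipophagy liver stayed 1.91 FPKM under the lowest control liver. The control mean was 6.35 ± 0.565 FPKM and the lipophagy mean 3.41 ± 0.703 FPKM (SD, n = 3 each), which is 53.8% of control, with a log2 change of -0.75 (95% interval -1.04 to -0.45, adjusted p = 0.103, limma). Its log2 change stood at rank 53 from the lowest of the 11493 tested genes. Col1a2, the α2 chain, was at 7.76, 8.61 and 8.85 FPKM in the control group and at 4.18, 5.58 and 5.61 FPKM in the lipophagy livers. Its groups were likewise apart, and the lipophagy mean was 60.9% of control (log2 change -0.63, 95% interval -0.89 to -0.37, adjusted p = 0.111, limma).

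Col3a1, which encodes the homotrimeric type III collagen of young and reticular fibrils, was the most abundant member in all 6 livers. It was at 22.2, 25.2 and 25.7 FPKM in the control group and at 13.3, 18.1 and 16.8 FPKM in the lipophagy livers. The groups were separated by 4.07 FPKM, the widest gap in FPKM of the 10 genes. The lipophagy mean was 65.9% of the control mean (log2 change -0.58, 95% interval -0.86 to -0.30, adjusted p = 0.128, limma). Col3a1 made up 33.3% to 37.4% of the summed FPKM of the 10 genes in control livers and 29.8% to 36.4% in lipophagy livers, ranges that overlap.

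The type V chains differed in level, with Col5a3 far above Col5a1 and Col5a2 in all 6 livers. Col5a1, the chain common to nearly all type V trimers, was at 1.23, 1.07 and 1.19 FPKM in the control group and at 1.01, 0.742 and 0.918 FPKM in lipophagy livers. The groups were separated by only 0.0620 FPKM, and the counting intervals of the nearest livers overlapped (control liver 2 with 209 estimated fragments, 0.929 to 1.22 FPKM, and lipophagy liver 1 with 195, 0.871 to 1.16 FPKM, exact Poisson, counting error only). Its log2 change was -0.20 (95% interval -0.39 to -0.0018, adjusted p = 0.253, limma), and with quantile normalization the groups overlapped (-0.11), while a pseudocount of 0.1 gave -0.36. The unadjusted p of Col5a1 was 0.0484, and it was below 0.05 in only 7 of 16 alternative settings.

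Col5a2, the second chain of the common type V trimer, was at 1.525, 1.521 and 1.503 FPKM in the control group and at 0.804, 1.03 and 1.04 FPKM in lipophagy livers. The control livers were almost equal, with an SD of 0.0119 FPKM, and all lipophagy livers were below them. The lipophagy mean was 63.1% of control, with a log2 change of -0.37 (95% interval -0.55 to -0.18, adjusted p = 0.134, limma). With a pseudocount of 0.1 in place of 1 the change was -0.62, since the gene is near 1 FPKM.

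Col5a3, a less widespread type V chain, was the most abundant type V chain in liver, with 11.0, 10.7 and 9.12 FPKM in the control group and 8.99, 8.71 and 9.60 FPKM in lipophagy livers. Control liver 3 lay within the lipophagy livers. The mean was 10.3 ± 1.01 FPKM in the control group and 9.10 ± 0.459 FPKM in lipophagy livers (SD, n = 3 each), or 88.5% of control, and the difference did not pass the test (log2 change -0.16, 95% interval -0.37 to 0.054, adjusted p = 0.370, limma, exact permutation p = 0.2). The interval spans 0 and reaches down to the log2 change of Col5a2.

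**Figure D2:**
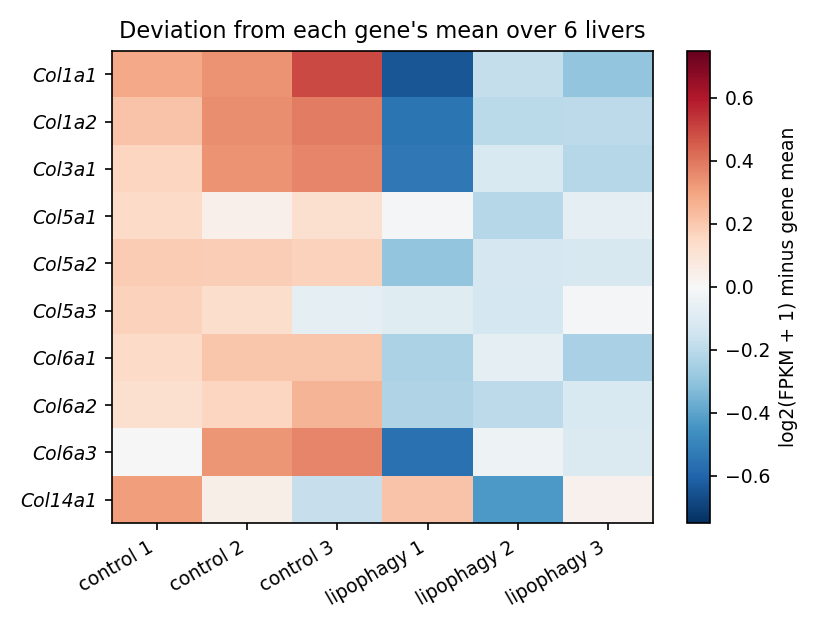
Deviation of log2(FPKM + 1) from each gene's mean over the 6 livers, with red above and blue below the mean. Lipophagy liver 1 held the lowest value of its group in 6 genes and the highest in Col5a1 and Col14a1, and control liver 1 held the lowest value of its group in 6 genes and the highest in 4.

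The type VI chains, which assemble as a heterotrimer of α1, α2 and a larger chain, were each lower in the lipophagy livers. Col6a1 was at 3.63, 3.83 and 3.84 FPKM in the control group and at 2.55, 2.98 and 2.54 FPKM in lipophagy livers. The control livers were close to each other and all above the lipophagy livers, whose mean was 71.5% of control (log2 change -0.37, 95% interval -0.56 to -0.18, adjusted p = 0.134, limma). Col6a2 was at 2.103, 2.196 and 2.414 FPKM in the control group and at 1.448, 1.502 and 1.646 FPKM in lipophagy livers. These groups did not overlap either, and the log2 change was -0.35 (95% interval -0.54 to -0.17, adjusted p = 0.134, limma).

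Col6a3, which encodes the long α3 chain, was the most variable type VI chain, at 1.93, 2.69 and 2.77 FPKM in the control group and 0.988, 1.86 and 1.72 FPKM in lipophagy livers. Control liver 1 and lipophagy liver 1 were each the lowest of their group, and control liver 1 was only 0.0771 FPKM above lipophagy liver 2. The counting intervals of this nearest pair overlapped (1.77 to 2.11 and 1.68 to 2.04 FPKM). The log2 change was -0.47 (95% interval -0.83 to -0.10, adjusted p = 0.195, limma), and it was -0.30 without lipophagy liver 1. The unadjusted p was 0.0507 without lipophagy liver 1, 0.057 without control liver 2 and 0.0633 without control liver 3 (limma). It was below 0.05 in 13 of 16 alternative settings. With quantile normalization the groups of Col6a3 overlapped (log2 change -0.40).

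Col14a1, a fibril-associated collagen with interrupted triple helices, overlapped between groups, as Col5a3 did. It was at 9.37, 7.59 and 6.40 FPKM in the control group and at 8.69, 5.20 and 7.54 FPKM in lipophagy livers. Here control liver 1 and lipophagy liver 1 were the highest of their groups, in contrast to the type I, III and VI chains other than Col6a1, in which both were the lowest. The mean was 7.79 ± 1.49 FPKM in the control group and 7.14 ± 1.78 FPKM in lipophagy livers (SD, n = 3 each), a difference smaller than either SD (log2 change -0.12, 95% interval -0.54 to 0.30, adjusted p = 0.733, limma, exact permutation p = 0.6). Its direction turned without control liver 1 (0.0056) and without lipophagy liver 2 (0.063).

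Summed over the 10 genes, the level was 66.6, 69.5 and 68.8 FPKM in the control group and 44.6, 49.7 and 51.0 FPKM in lipophagy livers. The groups of this sum were apart, with lipophagy liver 1 lowest. Without Col5a3 and Col14a1, which overlapped, the sum was 46.2, 51.2 and 53.3 FPKM in the control group and 26.9, 35.8 and 33.9 FPKM in lipophagy livers, a description of the 8 genes that were apart and not a test. The order of the mean levels in FPKM was Col3a1, Col5a3, Col1a2, Col14a1, Col1a1, Col6a1, Col6a3, Col6a2, Col5a2 and Col5a1 in control livers. In lipophagy livers Col14a1 stood above Col1a2, Col6a2 stood just above Col6a3, and Col5a1 was again last. Neighbours in this order whose control livers overlapped were Col1a2 with Col14a1, Col14a1 with Col1a1, and Col6a3 with Col6a2.

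**Figure D3:**
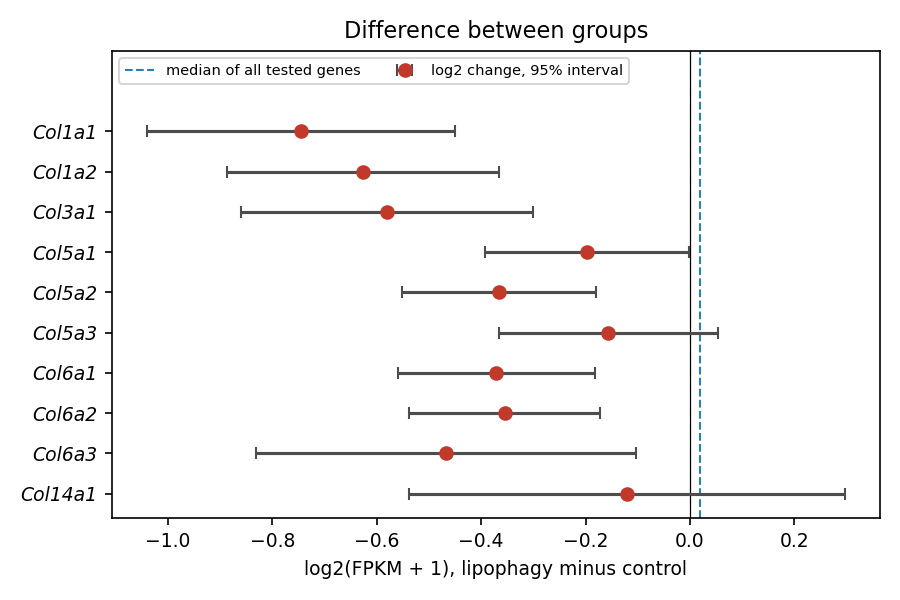
Difference of log2(FPKM + 1) between the lipophagy and control means for each gene, with the 95% interval of the limma fit, and the median of all tested genes (0.020) as a dashed line. The intervals of Col5a3 and Col14a1 span 0, and Col1a1 lies lowest at -0.75.

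Whether the chains of a trimer or fibril kept their proportion was examined with 9 ratios of FPKM values, each with a two-sided exact permutation test on the log2 ratio and Benjamini-Hochberg adjustment over the 9. The ratio of Col3a1 to Col1a1 was 3.75, 4.10 and 3.68 in control livers and 5.04, 4.53 and 4.65 in lipophagy livers. These groups were apart at the smallest p the design allows (exact permutation p = 0.1, adjusted p = 0.36), so that Col1a1 was lower relative to Col3a1 in each lipophagy liver. The ratio of Col6a1 to Col1a1 was also apart, at 0.615, 0.624 and 0.549 in control livers and 0.971, 0.745 and 0.704 in lipophagy livers (exact permutation p = 0.1, adjusted p = 0.36). For the other 7 ratios the livers overlapped, with an exact permutation p from 0.2 to 0.7.

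Within the type I pair, the ratio of Col1a1 to Col1a2 was 0.755 ± 0.0380 in control livers and 0.663 ± 0.0466 in lipophagy livers (SD, n = 3 each, exact permutation p = 0.2). It was below 1 in all 6 livers, although the type I molecule holds more α1 than α2 chains. The ratio of Col6a1 to Col6a2 was 1.69 ± 0.0857 and 1.76 ± 0.219, and that of Col6a3 to Col6a1 was 0.652 ± 0.104 and 0.562 ± 0.154, with overlapping livers (SD, n = 3 each). Col5a3 stood 8.88 ± 1.17 times above Col5a1 in control livers and 10.4 ± 1.41 times in lipophagy livers (SD, n = 3 each), which also overlapped. On the log2 scale the ratio of Col14a1 to Col1a1 varied most within each group. It ran from 0.917 to 1.59 in control livers and from 1.30 to 3.30 in lipophagy livers (exact permutation p = 0.2).

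**Figure D4:**
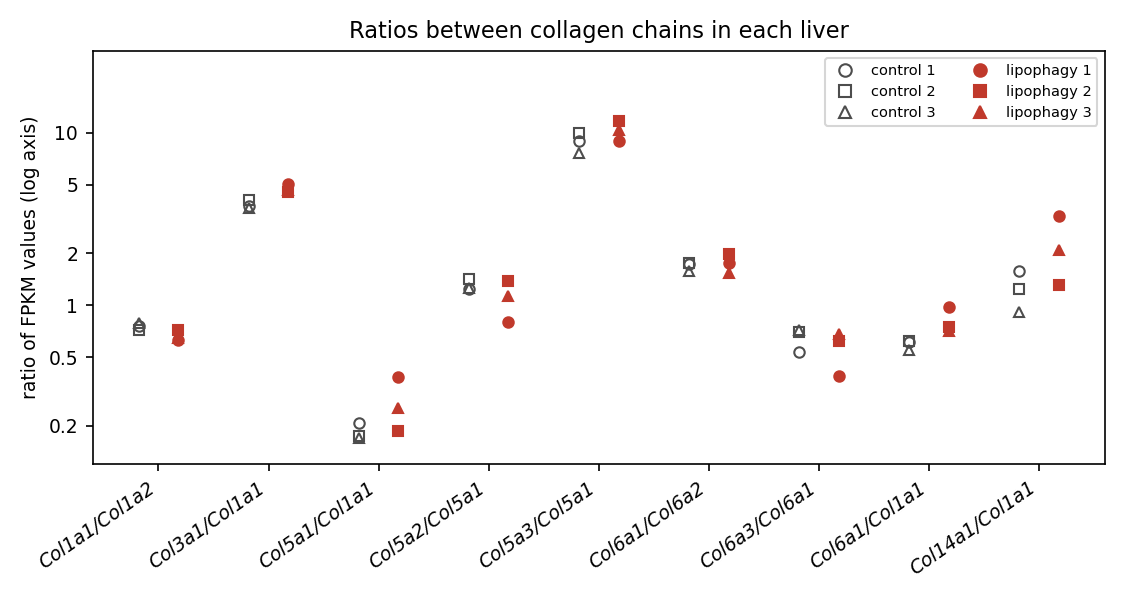
Ratios of FPKM values between collagen chains (log axis) in each control liver (open grey) and lipophagy liver (filled red). The groups are apart for Col3a1/Col1a1 and Col6a1/Col1a1 and overlap for the other 7 ratios.

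Newly made collagen chains are hydroxylated, folded, trimmed and cross-linked by a set of enzymes and chaperones. Of 35 genes listed for these steps, 23 passed the filter, 14 were lower and 9 higher in lipophagy livers (16 were lower with quantile normalization), at a median log2 change of -0.14. None of the 23 passed adjustment over all tested genes (limma). Without adjustment 6 were lower at a p below 0.05, against 7.97% of all tested genes, and 2 were higher, against 11.5%. In 8 genes each lipophagy liver lay below each control liver, against 10.8% of all tested genes, and in 4 each lay above, against 15.4%. Serpinh1, the collagen chaperone HSP47, was the lowest, at 12.4, 17.9 and 17.2 FPKM in the control group and 9.19, 11.4 and 10.3 FPKM in lipophagy livers. Its groups were apart (log2 change -0.56 ± 0.14 SE, adjusted p = 0.140, limma).

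Among the genes for trimming and cross-linking, Pcolce, which enhances removal of the C-propeptide, was at 9.67 ± 1.20 FPKM in the control group and 7.04 ± 0.196 FPKM in lipophagy livers (SD, n = 3 each). The cross-linking lysyl oxidases Loxl1 (1.79 ± 0.243 and 0.971 ± 0.102 FPKM) and Loxl2 (1.19 ± 0.0575 and 0.838 ± 0.0208 FPKM) were also lower with groups apart, at adjusted p of 0.116 and 0.160 (limma). Lox and the lysyl hydroxylase gene Plod2 were under the filter, at 0.398 ± 0.0556 and 0.204 ± 0.0950 FPKM for Lox and at 0.520 ± 0.175 and 0.300 ± 0.0370 FPKM for Plod2. The prolyl hydroxylase genes P4ha1 (log2 change -0.12, standard error 0.13) and P4ha2 (-0.25, standard error 0.18) had overlapping groups.

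The 2 genes with a higher level at an unadjusted p below 0.05 were P4hb and Ppib, which encode abundant folding enzymes of the endoplasmic reticulum that serve many secreted proteins besides collagen. P4hb was at 591, 663 and 666 FPKM in the control group and at 837, 714 and 740 FPKM in lipophagy livers. Ppib had the highest log2 value of the list, at 0.38 (standard error 0.14, adjusted p = 0.213, limma). The count of 2 was 0 with quantile normalization, and 1 on leaving out any single control liver or lipophagy liver 1.

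Genes whose products bind to collagen fibrils were mostly on the lower side, with 14 of 15 tested genes (21 listed), or 12 of 15 with quantile normalization, and a median log2 change of -0.26. Without adjustment 9 of the 15 had a p below 0.05 (limma), all lower, against 7.97% of all tested genes, and 0 passed adjustment over all tested genes. The count at an unadjusted p was 5 without control liver 2 and 4 without control liver 3. Bgn, which encodes biglycan, was at 72.6, 68.8 and 69.0 FPKM in the control group and at 52.1, 53.8 and 51.6 FPKM in lipophagy livers, and its groups were apart (log2 change -0.41, standard error 0.071, adjusted p = 0.103, limma). Bgn was chosen after its values were seen. Fmod, fibromodulin, was at 0.864 ± 0.0950 and 0.377 ± 0.0642 FPKM, and Lum, lumican, at 15.1 ± 2.51 and 10.3 ± 1.12 FPKM (SD, n = 3 each), both apart.

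Dpt, dermatopontin, had the lowest log2 change of these genes (-0.82, standard error 0.28), but lipophagy liver 2 (8.75 FPKM) lay above control liver 1 (8.20 FPKM). Sparc, an abundant collagen-binding glycoprotein, was at 37.7 ± 2.52 FPKM in the control group and 30.2 ± 2.34 FPKM in lipophagy livers. Dcn, decorin, at 124 ± 9.30 and 112 ± 17.4 FPKM, overlapped between groups (SD, n = 3 each), and so did Fn1, fibronectin (log2 change -0.065, standard error 0.11). Ogn, the gene on the higher side, was at 0.026 (standard error 0.096).

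**Figure D5:**
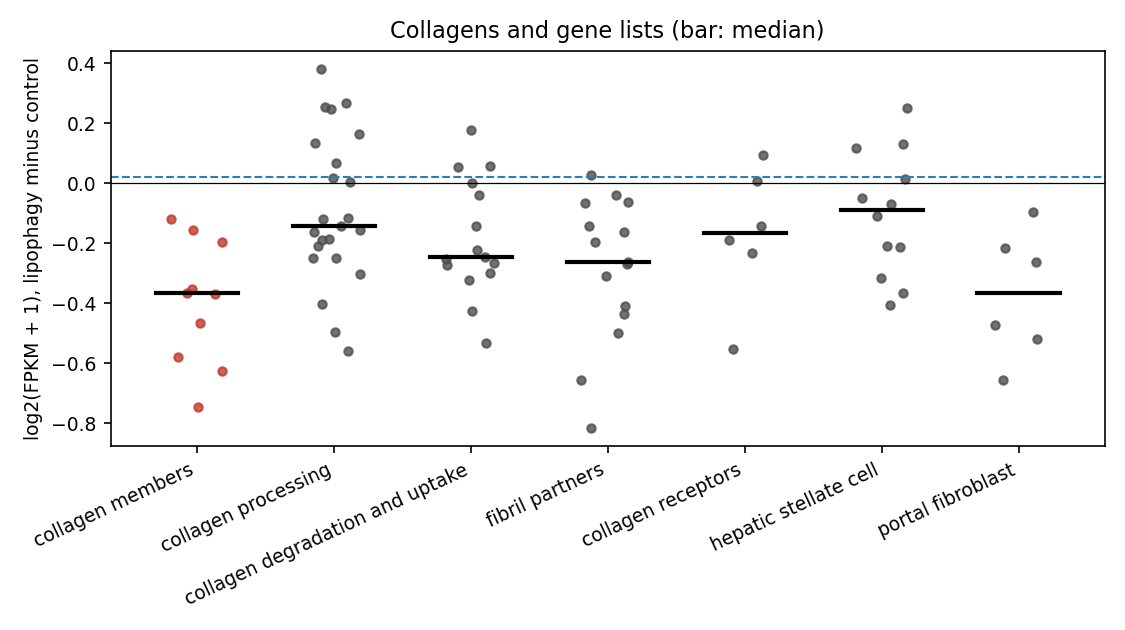
Log2 change (lipophagy minus control) of each tested gene among the collagens (red) and in 6 lists (grey), with the median of each list as a black bar and that of all tested genes as a dashed line. The collagen median is -0.37, and the medians of the lists lie between -0.09 for hepatic stellate cell markers and -0.37 for portal fibroblast markers.

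Genes of collagen degradation and uptake were not opposite to the collagens in sign. Of 15 tested genes (21 listed) 11 had a lower mean (12 with quantile normalization), the median log2 change was -0.25, and 0 passed adjustment (limma). At an unadjusted p below 0.05, 7 were lower, against 7.97% of all tested genes, and 1 was higher, against 11.5%. Of the 7, 3 were the inhibitor genes Timp1, Timp2 and Timp3, so that the count mixes enzymes with inhibitors of degradation. The 7 became 4 without control liver 2 or without control liver 3. Mmp2, the gelatinase made by stellate cells, was lowest, at 2.79, 3.87 and 4.35 FPKM in the control group and 2.46, 2.45 and 1.72 FPKM in lipophagy livers. The collagenase genes Mmp13 (1.06 ± 0.0379 and 0.725 ± 0.244 FPKM) and Mmp14 (11.22 ± 0.0947 and 9.29 ± 0.941 FPKM), the inhibitor gene Timp1 (4.86 ± 0.303 and 3.42 ± 0.868 FPKM) and the collagen uptake receptor gene Mrc2 (0.957 ± 0.156 and 0.589 ± 0.120 FPKM) were apart in the same direction (SD, n = 3 each).

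Ctsk, which encodes the collagen-cleaving cathepsin K, overlapped between groups (log2 change -0.038, and 0.0079 with quantile normalization). Dpp4, a peptidase expressed by hepatocytes, was the gene with a higher level at an unadjusted p below 0.05 (0.18, standard error 0.073). That count of 1 was 0 with quantile normalization and on leaving out any single liver other than control liver 1. Among the collagen receptors 6 of 13 genes were tested, with 0 called after adjustment and 1 lower at an unadjusted p below 0.05 (limma), against 7.97% of all tested genes. This count was 0 with quantile normalization and on leaving out control liver 2 or 3 or lipophagy liver 1, and it was 2 on leaving out lipophagy liver 2, with no filter, or with liver weights. The gene was Ddr1, the collagen-binding receptor kinase of epithelia, at 1.40, 1.99 and 2.78 FPKM in the control group and 0.757, 1.72 and 0.795 FPKM in lipophagy livers, which overlapped. Its relative Ddr2, of mesenchymal cells, had a mean over all livers under the filter, at 0.553 ± 0.0619 and 0.419 ± 0.0837 FPKM (SD, n = 3 each). The integrin gene Itga1 had a log2 change of 0.0058 with overlapping groups, and Itgb1 one of 0.094, which was -0.032 with quantile normalization.

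Of 17 other genes for fibrillar, fibril-associated and type VI collagen chains, 16 were in the table and 2 passed the filter. Col27a1 was at 1.91 ± 0.543 FPKM in the control group and 2.34 ± 0.218 FPKM in lipophagy livers (log2 change 0.22, standard error 0.14), with overlapping groups. Col16a1 was at 0.877 ± 0.0176 and 0.804 ± 0.0984 FPKM (log2 change -0.059, and 0.026 with quantile normalization). The remaining 14 were below a mean of 0.5 FPKM over the livers, among them Col11a1, listed at 0 in all 6 livers.

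Markers of the cells that make collagen were set beside these values. Of 12 tested markers of hepatic stellate cells 8 were lower, 3 of them at an unadjusted p below 0.05, against 7.97% of all tested genes, and 0 after adjustment (limma), with a median log2 change of -0.090. Their summed level was 77.1 to 85.2 FPKM in the control group and 66.8 to 98.7 FPKM in lipophagy livers, which overlapped, and 0 markers were at 0. Pdgfrb, the receptor of stellate cells and pericytes, was at 2.75, 2.66 and 2.42 FPKM in the control group and 1.88, 1.99 and 1.82 FPKM in lipophagy livers. Des, desmin, was at 2.35 ± 0.0736 and 2.23 ± 0.124 FPKM, and Lrat, which stores retinol as ester in quiescent stellate cells, at 2.23 ± 0.509 and 2.84 ± 0.561 FPKM (SD, n = 3 each), both overlapping.

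Relative to these stellate cell genes, in ratios chosen after seeing the data, the result varied with the gene used as reference. The ratio of Col1a1 to Des was 2.51, 2.55 and 3.08 in control livers and 1.17, 1.70 and 1.72 in lipophagy livers, and that to Pdgfrb was 2.15, 2.32 and 2.89 and then 1.40, 2.01 and 1.99. Both were apart (exact permutation p = 0.1 for each). The ratio of Col3a1 to Des was apart as well, at 9.39 to 11.3 in control livers and 5.91 to 7.98 in lipophagy livers, while that of Col3a1 to Pdgfrb overlapped, at 8.06 to 10.6 and 7.06 to 9.26 (exact permutation p = 0.4).

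Markers of other mesenchymal cells were mostly on the same side as the collagens. Of 7 tested markers of activated stellate cells or myofibroblasts (10 listed) 6 were lower and 5 of these had an unadjusted p below 0.05, against 7.97% of all tested genes. The summed level of the 10 listed genes, 152 to 258 FPKM in the control group and 105 to 202 FPKM in lipophagy livers, was mostly Spp1, osteopontin (131 to 236 and 87.5 to 187 FPKM), which overlapped between groups. All 6 tested portal fibroblast markers (10 listed) were lower, 3 at an unadjusted p below 0.05 (limma), against 7.97% of all tested genes, and in 1 of the 6, Cd34, the groups were apart, against 10.8% of all tested genes. The summed level of the 10 listed genes was 18.2 to 25.5 FPKM in the control group and 14.2 to 17.7 FPKM in lipophagy livers, without overlap. Its largest parts, Smoc2 (means of 8.47 and 6.82 FPKM) and Entpd2 (5.37 and 4.93 FPKM), each overlapped between groups. Some of these markers, such as Eln, Timp1 and Postn, are also in the collagen-related lists above. All 4 tested markers of vascular smooth muscle (8 listed) were lower too, and the 8 listed genes summed to 13.57 to 16.11 and 10.55 to 12.03 FPKM. Of these 4, Acta2 and Tagln are also in the myofibroblast list and Des is in the stellate cell list, so that Smtn alone was added. Acta2, smooth muscle actin, which the study's heat map of these livers also marks, was at 1.04 ± 0.201 and 0.614 ± 0.158 FPKM (SD, n = 3 each). Of the mesothelial markers 1 of 8 passed the filter, Krt19, which bile duct cells also express, and 0 of these lists held a gene that passed adjustment (limma). The part of these cell types in the collagen values was not tested.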

How the data were processed

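Poly(A) RNA of 6 livers was sequenced in paired-end mode with 100-base reads from stranded libraries. The authors deposited FPKM values per gene symbol and liver, scaled to transcript length and mapped fragments. The submitters' processing notes name TopHat2 2.0.13, Bowtie2 2.2.3, SAMtools 0.1.19, Cufflinks 2.2.1 and build mm10, and the annotation is not given in the sources used here. Groups came from the sample titles. FPKM values are not counts, so log2(FPKM + 1) was tested with limma 3.58.1 in R 4.3.3 (two-sided, intensity trend, no covariate) over 11493 genes whose mean reached 0.5 FPKM, and p-values were adjusted by Benjamini-Hochberg over all of them at 0.05. The model was tested on simulated data with larger changes than any collagen gene showed, which says nothing about changes of this size. Single values used a two-sided exact permutation test (scipy 1.17.1). Labels state no separate cultures or cages, so p-values measure the spread between these livers.

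Depth was estimated by choosing, between 15 and 40 M, the number of fragments that brought the values of low genes with 1 annotated transcript (GENCODE M21, GRCm38, length less 150 bases) closest to whole fragments, and 72.3% to 75.9% of 754 to 816 such values lay within 0.1 of a whole number. Without taking off 150 bases the depth was 21.1 to 31.6 M. The range was narrowed after seeing the data, because a wider one gave a multiple of the depth for 1 liver. Fragment numbers of the collagen genes rest on this depth and on the longest annotated transcript, and their intervals cover counting error only. Spearman correlations between livers were 0.979 to 0.982, and 0 pairs of livers were identical. The table holds 7161 genes at 0 in all livers.

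Members and gene lists were chosen with earlier results of these data known. Named were the 10 members and, in each list, the genes with the largest rise and fall and a set of genes fixed with the lists, while Bgn, P4hb, Col11a1 and the single marker genes were chosen after their values were seen. Alternatives were pseudocounts of 0.1 and 0.5, filters of none, 0.1 and 1 FPKM, quantile normalization, a common median, no trend, liver weights, the replicate number as a block and each liver left out. Promoter sequences are from RefSeq (GRCm38.p6), while protein sequences were not used here.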

Additional observations from a re-analysis of the deposited data

How the results depend on the processing

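Under 16 alternatives, the 10 collagen genes gave 160 values. Of these, 157 kept their direction and stayed above an adjusted p of 0.05 (limma). The direction of Col14a1 turned without control liver 1 (0.0056) and without lipophagy liver 2 (0.063), and with 1 liver left out it ranged from -0.26 to 0.063. The number of collagen genes with an adjusted p below 0.05 was 0 in the reported fit and 1 with the replicate number as a block, where Col1a1 had an adjusted p of 0.0445 (limma, 0.0445 to 0.336 over its alternatives). The livers share only a number: deviations of same-numbered livers correlated at 0.250, 0.234 and -0.057 across genes, and not every liver matched best with its own number. The median log2 change of the 10 genes was -0.56 with a pseudocount of 0.1, against -0.37 as reported, since 1 added to a low FPKM shrinks its change. The number with an unadjusted p below 0.05 was 6 to 8 and the number of genes whose groups did not overlap 6 to 9 under all alternatives. Of the listed pathway genes 0 passed adjustment under any alternative. Among the 8 genes with groups apart, the counting intervals of the nearest control and lipophagy livers overlapped for Col5a1, Col6a1, Col6a2 and Col6a3. The part of depth in these comparisons was not tested.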

Other observations

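Other cell types of the liver were read from marker lists, none of which held a gene that passed adjustment over all tested genes (limma). Of 10 macrophage markers 6 were on the lower side, at a median log2 change of -0.15. They ran from Ly6c2, a monocyte gene (-0.45, standard error 0.13), to Vsig4, a gene of resident Kupffer cells (0.40, standard error 0.12). In 3 of the 10, Ly6c2 among them, each lipophagy liver lay below each control liver, against 10.8% of all tested genes. In 1, Vsig4, each lay above, against 15.4%. The 5 tested bile duct markers had negative log2 changes with overlapping groups, from -0.55 for Epcam to -0.060 for Sox9, which was at 0.023 with quantile normalization. Sinusoidal endothelial markers had a median of 0.10, with 6 of 8 higher and overlapping summed levels (35.4 to 43.8 FPKM in control livers and 39.1 to 61.0 FPKM in lipophagy livers). Hepatocyte markers had a median of 0.17, which was -0.025 with quantile normalization. Of the 4 tested red cell genes 1, Alas2, had groups apart on the higher side, against 15.4% of all tested genes. It was at 73.8, 77.8 and 70.4 FPKM in control livers and at 93.9, 94.0 and 78.7 FPKM in lipophagy livers. The 3 haemoglobin genes are near-identical copies of others, and their higher means rested on single livers or on values near 0 in part of the livers, with Hba-a1 at 23.0, 14.7 and 28.9 FPKM in control livers and at 23.3, 141 and 19.2 FPKM in lipophagy livers. The part of these markers in the collagen values was not tested.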
